A study of Mus musculus with 18 samples.

Results

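A list of 39 interferon-stimulated genes was examined in mouse skeletal muscle under endoplasmic reticulum (ER) stress. Its members were taken by gene symbol, and 36 of the 39 were measured by a probeset that carried a single gene symbol, out of 22180 genes measured in this way. Ifi44, Dtx3l and Gbp2 had no such probeset and were not analysed here. The samples were gastrocnemius muscles of 9 wild-type mice, labelled as female with a mixed C57Bl6/J-SV129 background. The study's methods name male C57BL/6J mice. Signals of Xist and of Y-linked genes, given below, matched the female label in every mouse but mouse 9. The 2 sources could not be reconciled for the strain. No age is taken from the labels here. In each mouse 1 leg was injected intramuscularly with 30 µg of tunicamycin, which stops the attachment of N-linked glycans in the ER and so stresses it, and the opposite leg with saline. Muscles were taken after 24 h, and each was hybridised to 1 array, giving 9 saline and 9 tunicamycin arrays. Both legs belonged to an animal that had received tunicamycin, so a change shared by both legs could not be seen.

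Interferons are secreted proteins that warn cells of infection. Type I interferons bind the receptor chains IFNAR1 and IFNAR2, which act through JAK1 and TYK2 on STAT proteins, and STAT2 joins IRF9 in a complex that binds the interferon-stimulated response element (ISRE) of target genes. Interferon gamma binds its own receptor and acts mainly at the gamma-activated site (GAS), with IRF1 and the large GTPases among its targets. Many products of the target genes are themselves parts of the pathway, as the RNA sensors, STAT2, IRF7 and IRF9 are.

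The promoters of the members are shown for their sequence context. A window of 250 bases before to 50 bases after the gene start was given for 30 of the 39 members by RefSeq (build GRCm38.p6). The letters of the ISRE were searched as GAAA, any 2 bases, and GAAA again, on both strands. At least 1 match was found in 14 of the 30 members, 46.7%, and in 3.99% of 27025 genes with a window. Matches were found in 5 of the 9 members with a window that rose after tunicamycin and in 8 of the 18 that were measured and not called. The letters of the GAS, TTCNNNGAA, were present in 8 of the 30 members, 26.7%, and in 9.55% of all genes with a window. They were present in 1 of the 9 members that rose and in 7 of the 18 that were not called. Whether either motif differed with the call was not tested. The 2 motifs were counted separately, and a match describes letters, not binding. Shown first are 4 members that rose, with the ISRE letters in capitals and 20 bases on each side, read along the strand of the gene. They lie at chr10:128270256-128270305 (plus strand, Stat2), chr8:71537567-71537622 (minus, Bst2), chr4:156200855-156200916 (minus, Isg15) and chr2:122147528-122147577 (plus, B2m).
Stat2: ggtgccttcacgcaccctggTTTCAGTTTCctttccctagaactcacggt
Bst2: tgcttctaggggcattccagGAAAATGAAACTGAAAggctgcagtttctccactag
Isg15: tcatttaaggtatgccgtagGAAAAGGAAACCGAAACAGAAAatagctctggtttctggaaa
B2m: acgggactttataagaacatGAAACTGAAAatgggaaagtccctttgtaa
Shown next are 4 members that were not called, for contrast with those above. They lie at chr19:34640765-34640833 (plus, Ifit1), chr19:34583353-34583436 (plus, Ifit3), chr12:26456543-26456592 (minus, Rsad2) and chr11:58199502-58199551 (plus, Igtp).
Ifit1: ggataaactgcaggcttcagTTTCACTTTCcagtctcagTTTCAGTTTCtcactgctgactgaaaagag
Ifit3: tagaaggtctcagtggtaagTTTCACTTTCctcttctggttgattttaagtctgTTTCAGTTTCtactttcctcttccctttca
Rsad2: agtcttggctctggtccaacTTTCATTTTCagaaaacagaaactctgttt
Igtp: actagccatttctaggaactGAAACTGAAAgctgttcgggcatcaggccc
Among the members shown, which were picked by their call, the overlapping matches belonged to members that rose (Bst2, Isg15). The separated matches belonged to members that were not called (Ifit1, Ifit3), and single matches to both (Stat2, B2m, Rsad2, Igtp). Overlapping matches were also found in Gbp3 and Irgm1, which are not shown and were not called.

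Part of the list rose, by small amounts, and no member fell. With limma and each mouse as its own control, 12 of the 36 measured members were higher in the tunicamycin legs at an adjusted p under 0.05, 33.3%, whereas 4.72% of all genes rose. As the members were chosen with earlier results of these data known, these shares are a description and no p is given for the list. The members that fell numbered 0, against 6.15% of all genes. At an unadjusted p under 0.05, 1 member, Iigp1, was lower. Falls made up 56.6% of all genes called and 69.0% after each array was centred on its median, where 8 members rose and 0 fell. The mean change was above 0 for 31 of the 36 members, and its median was 0.14 on the log2 scale, against 0.0064 over all genes. In all 9 mice 7 members were higher in the tunicamycin leg, whereas this held for 1.91% of all genes. Only 1 member, Ddx58, had all 9 tunicamycin arrays above all 9 saline arrays, a pattern seen in 0.406% of all genes. In a whole muscle, more RNA per cell and more cells of a type that expresses a gene cannot be told apart. Changes below are on the log2 scale (tunicamycin leg minus saline leg), followed by limma's moderated standard error (SE), and levels are log2 array signals, which are not set against each other between genes.

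**Figure D1:**
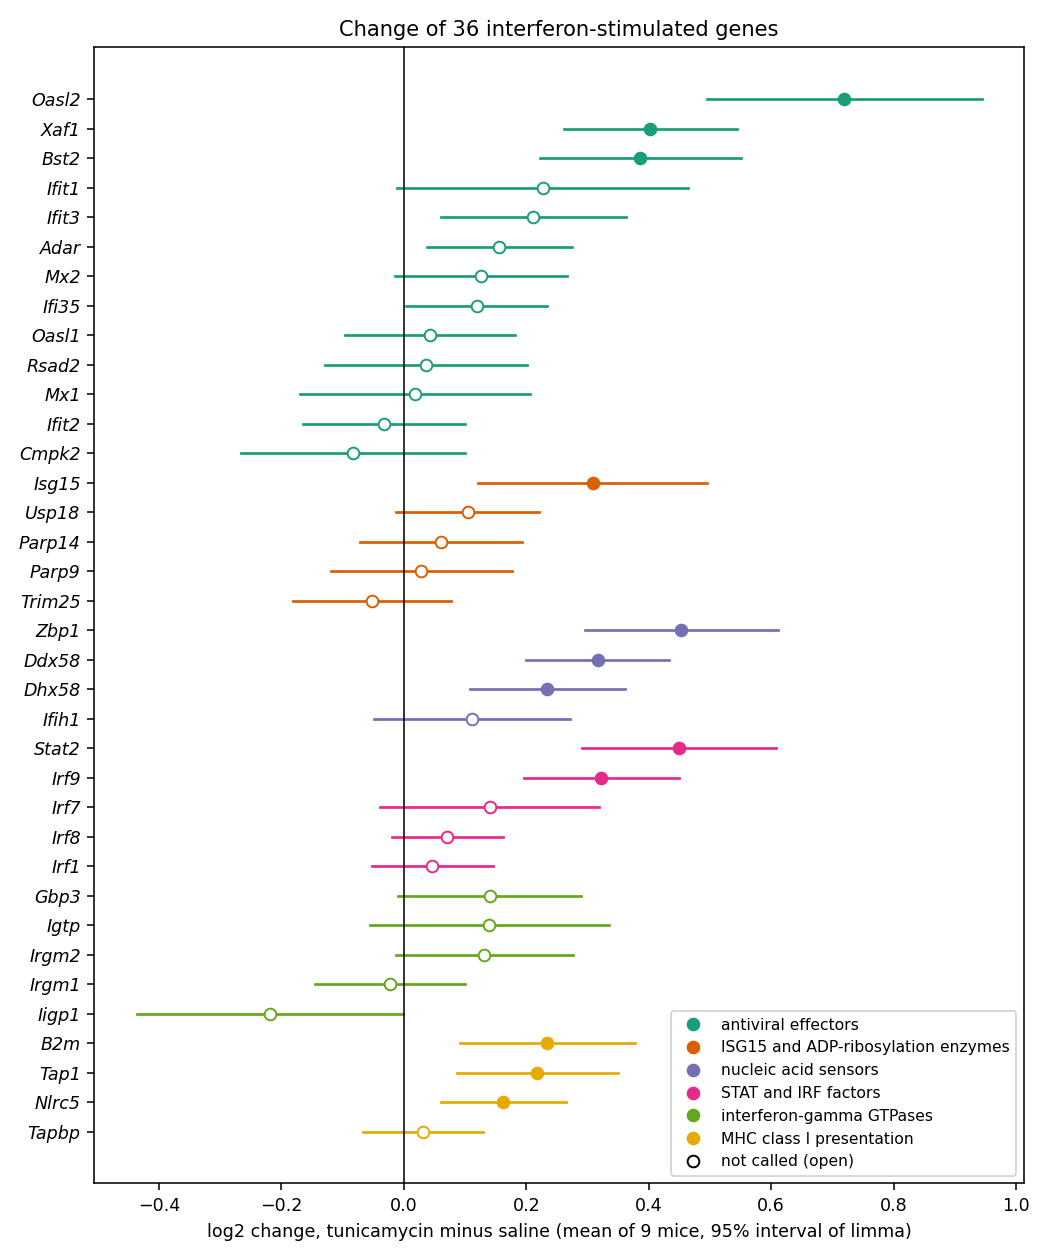
Log2 change (tunicamycin minus saline) of the 36 measured interferon-stimulated genes by role; points are means over 9 mice, lines the 95% intervals of limma, and filled points genes at an adjusted p under 0.05. The 12 filled points all lie to the right of 0, from 0.16 for Nlrc5 to 0.72 for Oasl2, and none of the 5 interferon-gamma GTPases is filled.

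Among the nucleic acid sensors, which detect foreign or misplaced RNA and DNA, 3 of 4 rose, against 4.72% of all genes. Their median change was 0.28. The same share of all genes stands beside the counts of the other role groups below, whose members are few and were chosen with earlier results known. Zbp1, a sensor of Z-form nucleic acid that can start necroptosis, had saline signals from 5.19 to 5.57 (median 5.41) and tunicamycin signals from 5.48 to 6.14 (median 5.86). The tunicamycin array of mouse 9 was the only one within the saline range. Zbp1 changed by 0.45 ± 0.073 (1.37-fold, adjusted p = 0.00305) and was higher in 9 of 9 mice, by 0.03 in mouse 9 and by 0.21 to 0.73 in the others. Ddx58 encodes RIG-I, a sensor of viral RNA with a free triphosphate end. Its saline signals ran from 5.11 to 5.43 (median 5.33) and its tunicamycin signals from 5.44 to 5.78 (median 5.57), so the groups did not overlap. The change was 0.32 ± 0.054 (1.25-fold, adjusted p = 0.00432), from 0.15 in mouse 2 to 0.66 in mouse 6. Dhx58, which encodes LGP2, a regulator of the RIG-I-like receptors, had signals of 4.73 to 4.99 (median 4.90) in saline legs and 4.96 to 5.31 (median 5.05) in tunicamycin legs. Here 8 of the 9 tunicamycin arrays were above every saline array. Dhx58 rose by 0.23 ± 0.059 (adjusted p = 0.0238), higher in 8 of 9 mice, with -0.01 in mouse 2. The call for Dhx58 was lost without mouse 4, 5, 6 or 7 (adjusted p from 0.0552 to 0.0630) and when probesets were tested singly (0.0536). Ifih1, which encodes MDA5, the sensor of long double-stranded RNA, was not called (0.11 ± 0.074, adjusted p = 0.381, higher in 6 of 9 mice).

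Of the 5 STAT and IRF transcription factors, 2 rose, Stat2 and Irf9, which work together in the type I complex. Stat2 had saline signals of 5.61 to 6.61 (median 5.94) and tunicamycin signals of 6.19 to 6.65 (median 6.43). The saline leg of mouse 4 was the highest saline array at 6.61 and reached into the tunicamycin range, while the next highest, mouse 7, was at 6.15. Stat2 changed by 0.45 ± 0.073 (1.36-fold, adjusted p = 0.00323), from 0.04 in mouse 4 to 0.91 in mouse 5, and was higher in 9 of 9 mice. Irf9, the DNA-binding subunit of the complex, ran from 5.73 to 6.53 (median 5.95) in saline legs and from 6.08 to 6.87 (median 6.30) in tunicamycin legs. Its groups overlapped, with 1 tunicamycin array above all saline arrays, and within mice the tunicamycin leg was higher 9 of 9 times. Irf9 rose by 0.32 ± 0.059 (1.25-fold, adjusted p = 0.00569), and without the mouse as a block the adjusted p was 0.0525. The other factors were not called. Irf7, which amplifies type I interferon transcription, changed by 0.14 ± 0.083 (adjusted p = 0.315). Irf8, a factor of myeloid cells, changed by 0.07 ± 0.042 (adjusted p = 0.315), and Irf1, a main target of interferon gamma, by 0.05 ± 0.046 (adjusted p = 0.579).

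Antiviral effectors act on viral RNA, on translation or on budding, and 3 of the 13 measured rose. Oasl2, a 2'-5' oligoadenylate synthetase-like gene, had the largest change of the 36 members. Its saline signals ran from 4.69 to 5.84 (median 4.84) and its tunicamycin signals from 5.35 to 6.15 (median 5.75). The groups overlapped, with the saline legs of mice 4 and 7 above the lowest tunicamycin array, and mouse 7 had the smallest difference between legs. Oasl2 rose by 0.72 ± 0.10 (1.65-fold, adjusted p = 0.00182), by 0.12 in mouse 7, by 0.28 in mouse 4, and by 0.43 to 1.09 in the other mice. Xaf1, a gene linked to apoptosis, had signals of 5.98 to 6.50 (median 6.13) in saline legs and 6.13 to 6.85 (median 6.50) in tunicamycin legs. All 9 mice had the higher signal in the tunicamycin leg, by only 0.02 in mouse 9 and by 0.28 or more in the others, and the groups overlapped. The change of Xaf1 was 0.40 ± 0.065 (1.32-fold, adjusted p = 0.00312). Bst2 encodes tetherin, which holds budding virions at the cell surface. Its signals ran from 4.89 to 5.60 (median 5.13) in saline legs and from 5.27 to 5.76 (median 5.55) in tunicamycin legs, again higher in 9 of 9 mice, with 3 tunicamycin arrays above every saline array. Bst2 rose by 0.39 ± 0.076 (1.31-fold, adjusted p = 0.00847), from 0.05 in mouse 1 to 0.86 in mouse 7.

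The other 10 antiviral effectors were not called, among them several that often serve as readouts of type I interferon. Ifit3, an RNA-binding tetratricopeptide repeat gene, changed by 0.21 ± 0.070 (adjusted p = 0.0722) and was higher in 8 of 9 mice. Ifit1, which binds viral RNA lacking a methylated cap, changed by 0.23 ± 0.11 (adjusted p = 0.218). For Adar, an RNA-editing enzyme, the change was 0.16 ± 0.055 (adjusted p = 0.0870). These 3 genes were each called in at least 1 other setting: Ifit1 without mouse 4 (0.33 ± 0.086, adjusted p = 0.0461), Ifit3 without mouse 6 (0.27, adjusted p = 0.0286), and Adar without mouse 9 (0.19, adjusted p = 0.0284), among genes above the median level (0.0431) and with array weights (0.0351). Means nearer to 0 were found for the dynamin-like GTPases Mx2 (0.13 ± 0.065) and Mx1 (0.02 ± 0.087, and -0.00017 after centring), for Ifi35 (0.12 ± 0.053, mean of 2 probesets with 0.09 and 0.14) and for Oasl1 (0.04 ± 0.064). Mx1 was dim, with signals of 2.80 to 3.56 in saline legs and 2.93 to 3.18 in tunicamycin legs. The array medians were 4.99 to 5.07, and a change of so dim a gene could go unseen. Rsad2, which encodes viperin, an enzyme that makes a chain-terminating nucleotide, changed by 0.04 ± 0.076, with a 95% interval from -0.13 to 0.20. Its genomic neighbour Cmpk2, a mitochondrial nucleotide kinase, changed by -0.08 ± 0.085, and Ifit2 by -0.03 ± 0.061. Adjusted p ran from 0.182 to 0.926 over these 7 genes. A difference between the genes that were called and those that were not was not tested.

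**Figure D2:**
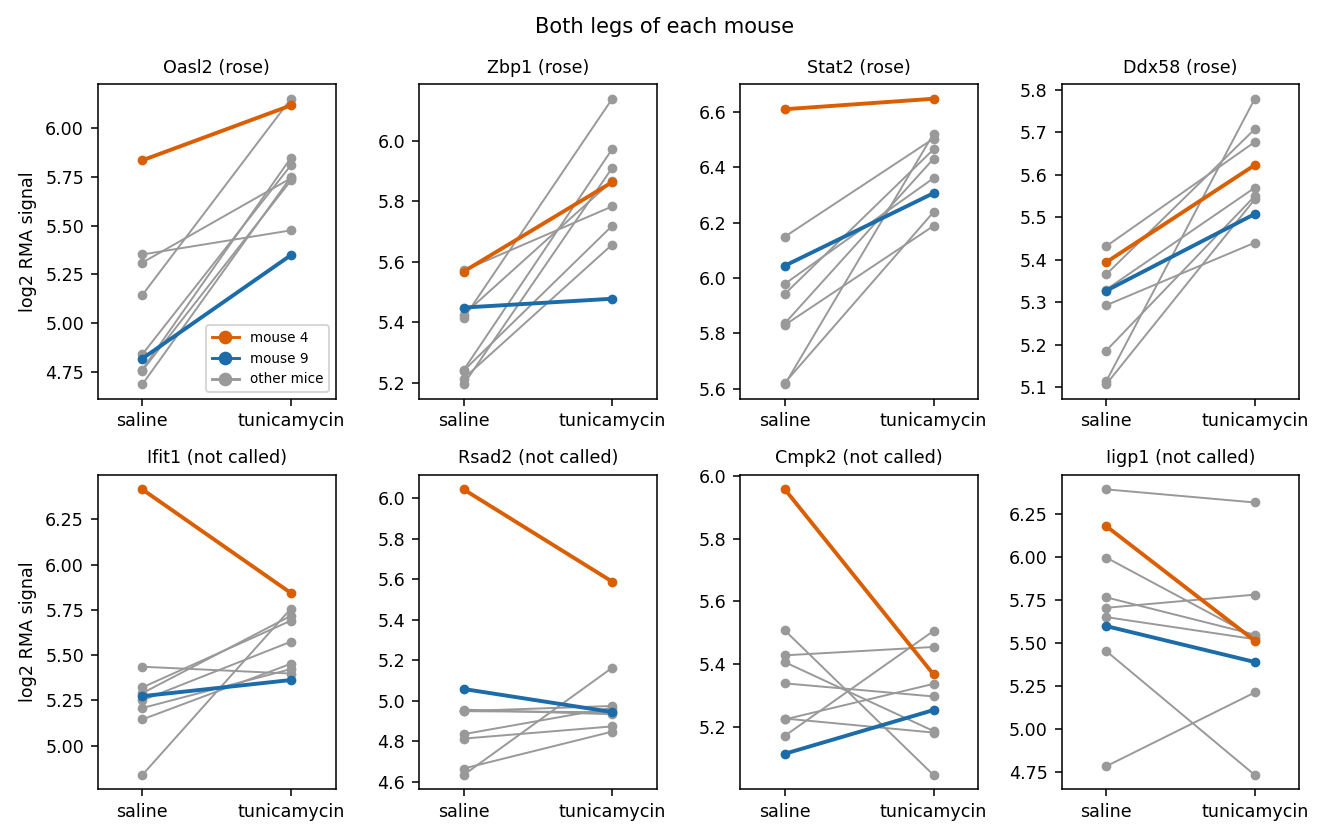
Log2 array signal in the saline and the tunicamycin leg of each of the 9 mice, for 4 members that rose (upper row) and 4 that were not called (lower row); a line joins the legs of a mouse, with mouse 4 in orange and mouse 9 in blue. For Ifit1, Rsad2 and Cmpk2 the highest saline signal belongs to mouse 4 (6.42, 6.04 and 5.96), and only the Ddx58 signals do not overlap between legs.

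ISG15 is a ubiquitin-like protein that is attached to other proteins after interferon, and it was the only one of the 5 measured genes of its conjugation and of ADP-ribosylation to rise. Isg15 signals were 4.27 to 4.93 (median 4.43) in saline legs and 4.60 to 4.94 (median 4.78) in tunicamycin legs. Only 1 tunicamycin array was above every saline array, and 7 of 9 mice had the higher signal in the tunicamycin leg, with -0.19 in mouse 4 and -0.01 in mouse 1. Isg15 rose by 0.31 ± 0.087 (1.24-fold, adjusted p = 0.0391). The call was lost in 9 of 17 other settings, among them quantile normalization of the arrays again (adjusted p = 0.0573), centring of the arrays (0.0518) and the fits without mouse 2, 3, 6, 7, 8 or 9 (0.0510 to 0.0975). Usp18, which removes ISG15 and also inhibits the type I receptor, changed by 0.10 ± 0.054 (adjusted p = 0.250). The ADP-ribosyltransferases Parp14 (0.06 ± 0.061) and Parp9 (0.03 ± 0.068) and the ubiquitin ligase Trim25 (-0.05 ± 0.060), which modifies RIG-I, had adjusted p from 0.592 to 0.843.

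The interferon-gamma GTPases, which attack the vacuoles of intracellular pathogens, had 0 of 5 measured genes called in either direction, and 1 of them, Iigp1, had an unadjusted p under 0.05. Over all genes 4.72% rose and 6.15% fell, and a count of 0 in 5 genes cannot be told apart from these shares. Gbp3 (0.14 ± 0.069), Igtp (0.14 ± 0.090) and Irgm2 (0.13 ± 0.067) were each higher in 7 of 9 mice, with adjusted p from 0.227 to 0.367. Irgm1, a regulator of the family, changed by -0.02 ± 0.056. Iigp1 was the member with the lowest mean. Its signals ran from 4.78 to 6.39 (median 5.70) in saline legs and from 4.73 to 6.31 (median 5.52) in tunicamycin legs. Both groups spanned nearly the same range, and 2 of 9 mice, mice 2 and 7, had the higher signal in the tunicamycin leg. The change of Iigp1 was -0.22 ± 0.10 (adjusted p = 0.191), with a 95% interval from -0.44 to -0.0021. The group median of 0.13 was close to the 0.13 of the antiviral effectors, and the 2 groups were not tested against each other. Without mice 1 and 9, a fit added once the data were known, Irgm2 was called (0.21, adjusted p = 0.0427). Members of this family, like those of the Ifit and Oasl families, are similar in sequence, so their probes may share targets.

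MHC class I presentation shows peptides of a cell to T cells, and 3 of its 4 members rose, each by a small amount. B2m, the invariant light chain of class I, had signals of 9.90 to 10.71 (median 10.39) in saline legs and 10.28 to 10.86 (median 10.60) in tunicamycin legs. It rose by 0.23 ± 0.066 (1.18-fold, adjusted p = 0.0394). The groups overlapped, and within mice the change was -0.26 in mouse 9 and 0.20 to 0.50 in the other 8. Nlrc5, a transactivator of class I genes, ran from 4.74 to 5.01 (median 4.88) in saline legs and from 4.92 to 5.09 (median 5.05) in tunicamycin legs. Its 6 highest arrays were all tunicamycin arrays, and 8 of 9 mice were higher in that leg. The change of Nlrc5 was 0.16 ± 0.047 (1.12-fold, adjusted p = 0.0434). Tap1, a subunit of the peptide transporter into the ER, rose by 0.22 ± 0.061 (adjusted p = 0.0379), higher in 7 of 9 mice, with signals of 6.06 to 6.34 (median 6.27) in saline legs and 6.14 to 6.63 (median 6.43) in tunicamycin legs. These calls lay near the threshold, and they were lost in 11 of 18 (B2m), 13 of 17 (Nlrc5) and 9 of 18 (Tap1) other settings. Without 1 mouse at a time 0 to 2 of the 4 genes were called. Tapbp, which loads peptide onto class I, changed by 0.03 ± 0.046, and its 2 probesets gave 0.10 and -0.03.

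**Figure D3:**
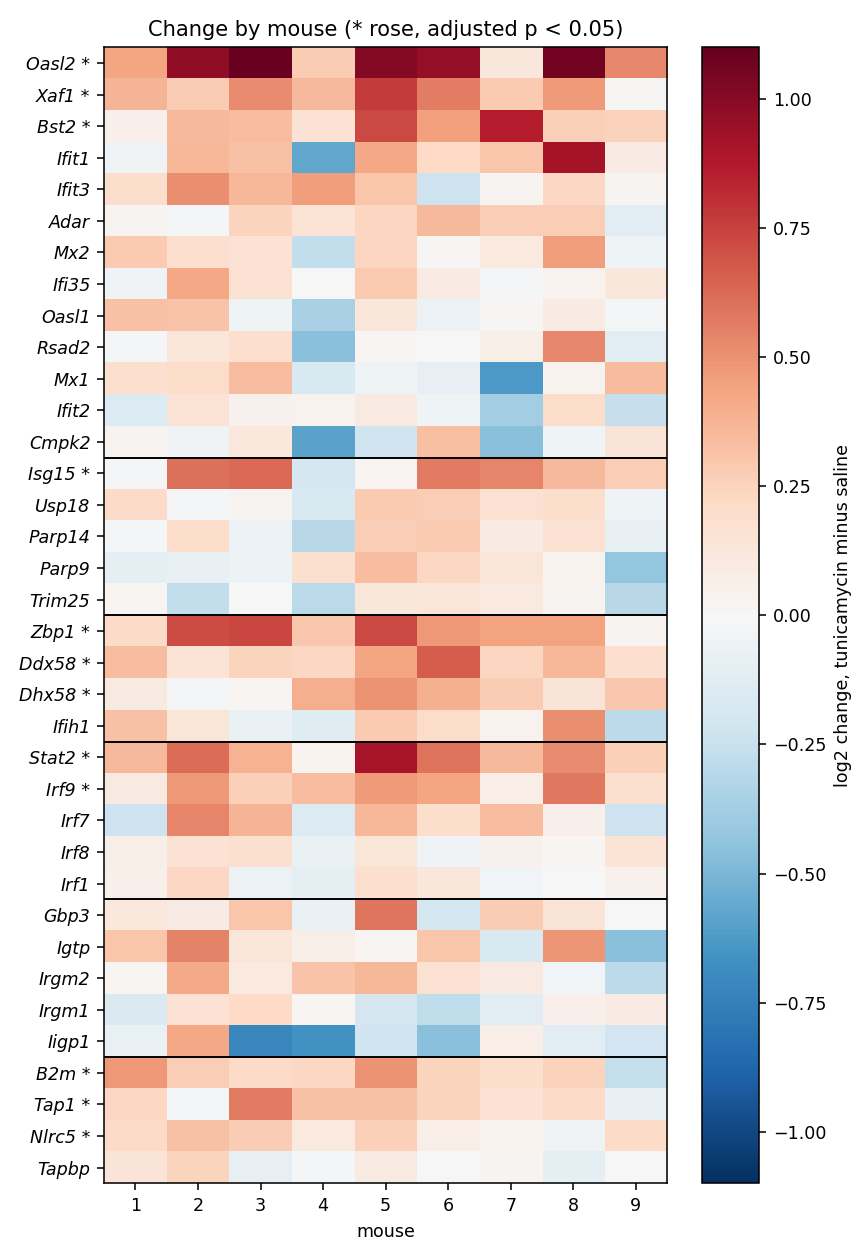
Log2 change (tunicamycin minus saline, colour) of each of the 36 measured members in each of the 9 mice, with horizontal lines between role groups and an asterisk on genes at an adjusted p under 0.05. The column of mouse 4 holds the lowest values of Ifit1 (-0.57), Rsad2 (-0.46) and Cmpk2 (-0.59), while the rows of Oasl2, Zbp1 and Stat2 are above 0 throughout.

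The calls of 6 members, Oasl2, Xaf1, Bst2, Zbp1, Ddx58 and Stat2, held in every other setting that measured them. The median change of the 36 members ran from 0.11 to 0.16 when 1 mouse at a time was left out, and the count that rose from 7 to 11, with 7 without mouse 7.

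The members differed from mouse to mouse, in the saline legs as well as in the changes. A change subtracts the saline signal, so an extreme saline leg moves the change by itself. The saline leg of mouse 4 had the highest saline signal for 20 of the 36 members, 55.6%, whereas it was highest for 12.1% of all genes. Ifit1 was at 6.42 there and at 4.84 to 5.44 in the other 8 saline legs. Rsad2 was at 6.04 against 4.63 to 5.06, Oasl1 at 5.86 against 4.95 to 5.32, and Cmpk2 at 5.96 against 5.11 to 5.51. The tunicamycin leg of this mouse was the highest of its group for 12 members, 33.3%, against 8.81% of all genes. Both legs of mouse 4 were thus high for many members, and the median change within it was 0.01, with 18 of 36 members higher. In mouse 9 the median change was also 0.01, but there the tunicamycin leg was the lowest of its group for 13 members, 36.1%, against 12.0% of all genes. The opposite end was mouse 5, with a median change of 0.29 and 32 of 36 members higher, and with the lowest saline signal for 12 members. In the remaining 6 mice the median ran from 0.10 to 0.23.

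These values stood beside those of other gene lists in the same mice. As a check of the injection, 6 ER stress genes (Hspa5, Hsp90b1, Ddit3, Herpud1, Sdf2l1, Xbp1) rose, with median changes of 0.54 in mouse 1, 0.64 in mouse 9 and between 1.22 and 1.60 elsewhere, mouse 4 being at 1.41. The 8 muscle fibre markers had mean signals of 11.2 to 11.4 in both groups, and 0 were called at an adjusted or unadjusted p under 0.05. Over all genes 4.72% rose and 6.15% fell, and the counts of the marker lists stand beside these shares. Of 12 macrophage markers 4 rose (such as Adgre1, 0.68 ± 0.12, and Fcgr1, 0.65 ± 0.11) and 1 fell (Cd163, -0.32 ± 0.062), and their mean signal ran from 6.28 to 6.89 in saline legs and from 6.48 to 7.20 in tunicamycin legs. Of 6 monocyte markers 2 rose (Plac8 and Vcan), with mean signals of 5.37 to 6.40 and 5.62 to 6.95. Of 9 neutrophil markers 4 rose (such as Csf3r and Mmp8), with mean signals of 4.29 to 4.86 and 4.55 to 5.49. Of T cell markers 1 of 6 (Cd4) and of fibroblast markers 2 of 7 (Col1a2 and Col3a1) rose, and 0 of 7 dendritic cell, 0 of 7 NK cell, 0 of 4 B cell and 0 of 7 endothelial markers, of which 0 also had an unadjusted p under 0.05. In mouse 9 the median changes of macrophage, monocyte and neutrophil markers were -0.32, -0.57 and -0.31, and in mouse 5 they were 0.35, 0.51 and 0.64. In mouse 4 they were -0.03, 0.73 and 0.48. They were -0.06, -0.20 and -0.24 in mouse 1, where the median change of the 36 members was 0.10. The part of these cells in the changes of the interferon-stimulated genes was not tested. Mouse 9 also had low Xist signals (4.79 and 4.90, against 9.22 to 9.52 in the others), although every mouse is labelled female. Its signals of the Y-linked genes Kdm5d, Eif2s3y and Uty, 2.78 to 3.47, lay within the 2.51 to 3.53 of the other mice. In those other mice, high Xist and low Y-linked signals matched the female label.

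**Figure D4:**
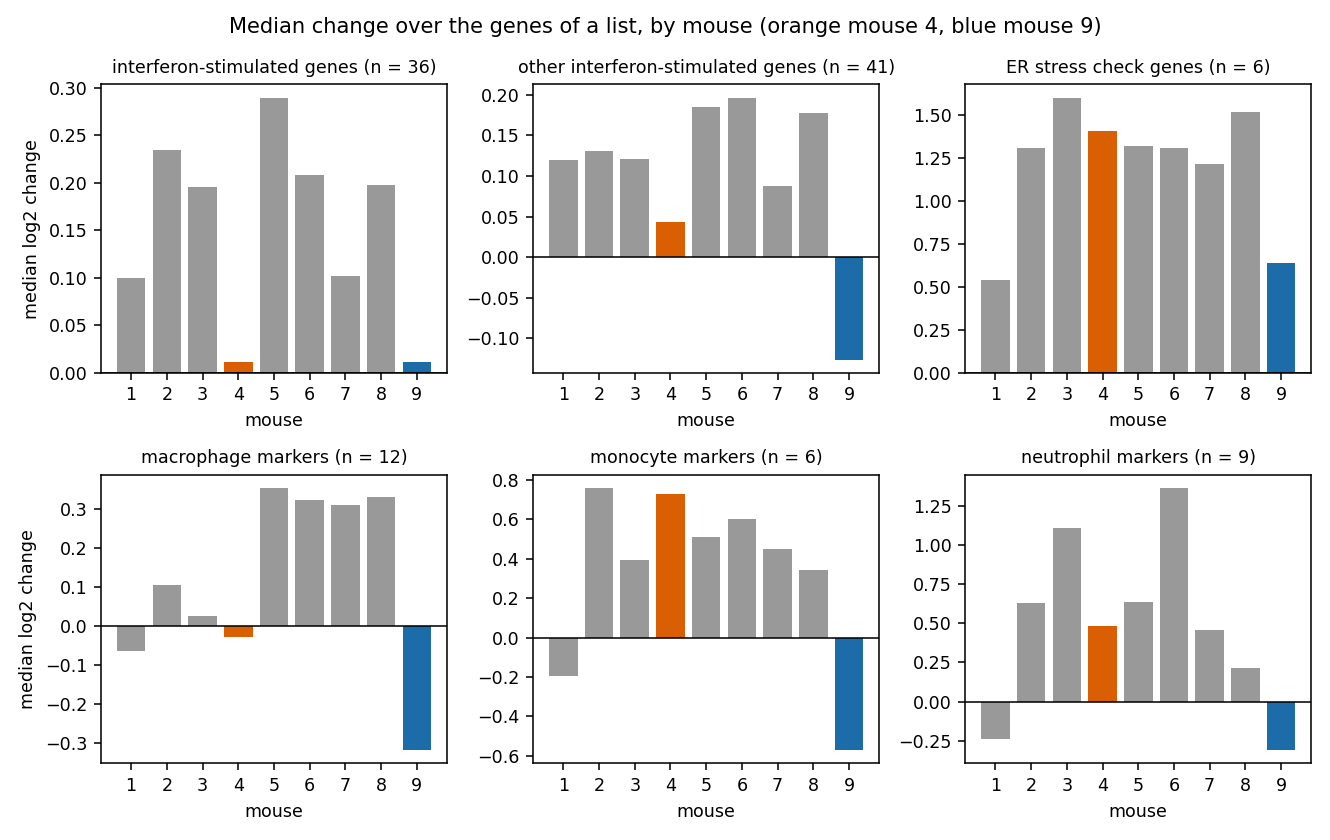
Median log2 change (tunicamycin minus saline) over the genes of 6 lists in each of the 9 mice, with mouse 4 in orange, mouse 9 in blue and a vertical scale of its own in each panel. For the 36 interferon-stimulated genes the bars of mice 4 and 9 are at 0.01, while the ER stress genes are at 1.41 in mouse 4 and 0.64 in mouse 9.

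The rest of the pathway was read from lists of 111 genes, of which 96 were measured, with a median change of 0.07. Of these 18 rose, 18.8% against 4.72% of all genes, and 2 fell, against 6.15% of all genes. The same shares of all genes stand beside the counts of the single lists below. Upstream of the receptor, 1 of 19 measured interferon genes was called higher, against 4.72% of all genes. This was Ifna6 (0.21 ± 0.062, adjusted p = 0.0454), whose family members are near copies of each other, and its call was lost in 11 of 17 other settings. The single-copy ligands Ifnb1 and Ifng were not called. Ifnb1 signals ran from 3.00 to 3.39 (median 3.23) in saline legs and from 3.09 to 3.34 (median 3.20) in tunicamycin legs, with a change of -0.01 ± 0.050 (adjusted p = 0.956). Ifng signals ran from 5.12 to 5.69 (median 5.29) and from 5.15 to 5.56 (median 5.40), with a change of 0.05 ± 0.061 (adjusted p = 0.635). The ranges of both ligands overlapped almost wholly. Ifnb1 signals lay far below the array medians of 4.99 to 5.07, so a change of this dim gene could go unseen. Of 11 adaptors and kinases that lead to interferon production, 4 rose, Myd88, the adaptor of most Toll-like receptors (0.59 ± 0.11), Tlr9, a sensor of DNA (0.25 ± 0.057), Sting1, the adaptor of cytosolic DNA sensing (0.35 ± 0.082), and the kinase Ikbke (0.25 ± 0.070). Myd88 and Tlr9 kept their calls in every other setting that measured them, Sting1 lost its call without mouse 3 (adjusted p = 0.0504) and Ikbke in 8 of 18. Mavs, the adaptor of RIG-I and MDA5, had a change of -0.25 ± 0.078 (adjusted p = 0.0561). Mavs was called lower with array weights (adjusted p = 0.0206), with the trended and robust prior (0.0426) and among genes above the median level (0.0314). The same held after centring (0.0361), with no block (0.0278) and without mouse 1, 8 or 9 (0.0196 to 0.0403). Without mice 1 and 9 the adjusted p was 0.00869. In the other settings Mavs was not called.

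At the receptor, Ifnar1 rose (0.25 ± 0.067, adjusted p = 0.0304), with signals of 7.63 to 7.87 (median 7.85) in saline legs and 7.73 to 8.34 (median 8.11) in tunicamycin legs. The groups overlapped, and 7 of 9 mice were higher. The call was lost without any 1 of mice 2 to 8 (adjusted p from 0.0612 to 0.0732) and with probesets tested singly (0.0649). Its partner Ifnar2 changed by 0.23 ± 0.073 (adjusted p = 0.0636), and the interferon gamma receptor chains Ifngr1 (0.08 ± 0.051) and Ifngr2 (-0.06 ± 0.040) were not called. Below the receptor, Stat3, which most cytokines of the IL-6 family use, rose in 9 of 9 mice (0.44 ± 0.063, adjusted p = 0.00187), and the kinase Jak2 fell (-0.16 ± 0.045, adjusted p = 0.0427). Of 6 inhibitors of the pathway 3 rose, Socs3 (0.45 ± 0.099) and the phosphatases Ptpn6 (0.46 ± 0.11) and Ptpn2 (0.20 ± 0.055), and Pias1 fell (-0.18 ± 0.045). Stat3 and Socs3 kept their calls in all 18 other settings, whereas Jak2 lost its call in 12, Ptpn2 in 9, Pias1 in 7 and Ptpn6 in 5. Without the mouse as a block the adjusted p was 0.162 for Jak2 and 0.0533 for Pias1. Socs1, the inhibitor most tied to interferon receptors, changed by 0.05 ± 0.045.

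Of 41 other interferon-stimulated genes 8 rose, 19.5% against 4.72% of all genes, and 0 fell, against 6.15% of all genes. Their median change was 0.10. The 4 with the smallest p were Lgals3bp, a secreted glycoprotein (0.28 ± 0.045, higher in 9 of 9 mice), Lgals9, a galectin (0.31 ± 0.051), Ifitm3, which blocks viral entry (0.56 ± 0.11), and Cxcl10, a chemokine (0.32 ± 0.067), the last 3 in 8 of 9 mice each. These 4 kept their calls in every other setting that measured them. The further rises, Slfn2, Ifi204, Rtp4 and Trim30a, lost theirs in 6, 9, 5 and 10 other settings. In this list too, the saline leg of mouse 4 was the highest most often, for 17 of 41 genes, and mouse 9 had a median change of -0.13. Of 9 other class I and immunoproteasome genes 0 rose and 0 fell, with 4 higher at an unadjusted p under 0.05, among them Psmb8 (0.12 ± 0.053, adjusted p = 0.174), a subunit of the immunoproteasome, and H2-K1, a class I heavy chain (0.14 ± 0.063, adjusted p = 0.171), whose relatives are close in sequence.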

How the data were processed

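Per the labels, total RNA of each muscle was hybridised to a MoGene-2_0-st Affymetrix array. The authors deposited log2 signals computed in Partek by RMA (background correction, quantile normalization and median polish), 1 value for each of 41345 probesets on 18 arrays. RMA draws weak signals together, so small changes of dim genes are understated. Array medians ran from 4.99 to 5.07, and precision is limited by the 9 arrays per group. The 23521 probesets that carried 1 symbol in the platform annotation were averaged to 22180 genes. A gene held only by probesets of several symbols was not analysed here.

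The test was the two-sided moderated test of limma (3.58.1, under R 4.3.3; lmFit, then eBayes), with a term for each mouse, and genes were called at a Benjamini-Hochberg adjusted p under 0.05 over all 22180 genes. The fit was tested on simulated data. Legs were paired because the labels assign both injections to 1 animal. Deviations of the 2 legs of a mouse from their group means correlated with a median r of 0.12 (-0.039 to 0.35), and 6 of 9 tunicamycin legs were closest to their own saline leg.

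The members and lists were chosen with earlier results of these data known. Older symbols of the lists were matched through RefSeq synonyms, and members by symbol alone. Every member was accounted for. Values over the mice are given for members past the threshold, first for those that changed 1 way in at least 8 of 9 mice and at most 3 per role. Isg15, Tap1 and Iigp1 fell outside this and were given after their values were seen, as were the values of the saline leg of mouse 4. Alternatives were no block, quantile normalization again, centring of each array, the brightest probeset, genes above the median level, array weights, a trended and robust prior, leaving out each mouse, and probesets tested singly. A fit without mice 1 and 9, whose legs did not deviate together, was added after the data were seen. Promoter windows are those of RefSeq (GRCm38.p6).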

Additional observations from a re-analysis of the deposited data

Results flagged for a closer look

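In 11 of 108 groups of 9 values (the saline levels, the tunicamycin levels and the changes of the 36 measured members), 1 mouse stood apart by more than the 95% limit of Dixon's test, which chance gives in about 1 of 20 groups. Members share arrays, so these groups are not independent. Mouse 4 was the one that stood apart in 8 of the 11. Its saline leg was high for Ifit1 (6.42), Rsad2 (6.04), Oasl1 (5.86), Cmpk2 (5.96) and Xaf1 (6.50), and its tunicamycin leg was high for Rsad2 (5.59), Oasl1 (5.50) and Irf9 (6.87). Mouse 7 had a high saline level of Ifit2 (4.96), mouse 3 a low tunicamycin level of Irgm1 (5.48), and mouse 9 a low change of B2m (-0.26). The source of these values was not tested.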

How the results depend on the processing

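No called change turned its direction. The means of 5 members that were not called crossed 0. Leaving out 1 mouse gave -0.023 to 0.0998 for Mx1 (below 0 without mouse 1, 2, 3 or 9), -0.011 to 0.0843 for Parp9 (below 0 without mouse 5), -0.0525 to 0.0092 for Irgm1 (above 0 without mouse 6), -0.025 to 0.0982 for Rsad2 (below 0 without mouse 8) and -0.0612 to 0.011 for Ifit2 (above 0 without mouse 7). Mx1 was also at -0.00017 after centring, -0.018 with array weights and -0.052 without mice 1 and 9, and Ifit2 at 0.015 without mice 1 and 9. The 12 rises among the members became 10 with no replicate block, 10 after quantile normalization again, 8 after centring, 12 with the brightest probeset, 9 among genes above the median level, 13 with array weights, 11 with a trended and robust prior, 7 with probesets tested singly and 13 without mice 1 and 9. Leaving out 1 mouse gave 7 to 11, and 0 fell each time. The median change of the members was 0.11 to 0.16 without 1 mouse. Without the replicate block, 1 STAT or IRF factor rose in place of 2 in the paired fit, and 1 other pathway gene fell, Mavs, which the paired fit did not call. Isg15 was not called after quantile normalization again, after centring, among genes above the median level, where it was not measured, or with probesets tested singly, so its group had 0. Leaving out 1 mouse gave 0 to 1 there. The class I group had 0 after centring and with probesets tested singly, and 0 to 2 without 1 mouse (0 without mouse 1, 3, 4, 5, 6 or 7 and 1 without mouse 2 or 8). Without mice 1 and 9, 1 interferon-gamma GTPase rose. Of other pathway genes 18 rose, 9 with probesets tested singly and 8 to 25 without 1 mouse (8, 9 and 9 without mouse 3, 5 or 6). Pathway genes that fell numbered 2, Jak2 and Pias1, then 0 after quantile normalization again and with probesets tested singly, and 0 to 2 without 1 mouse. With Mavs added they numbered 3 after centring, among genes above the median level, with array weights and with a trended and robust prior. Without mice 1 and 9 the count was 1, a different gene, Mavs. Centring and quantile normalization act on all genes, and whether a scaling removed true change was not tested. Dim signals limit the small changes most.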
